A study of Mus musculus with 4 samples.

Results

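Potassium channel genes were taken as the protein-coding genes of GENCODE vM1, the annotation of mouse genome build mm9, whose symbol starts with Kcn. They are 96 of the 22380 protein-coding genes, under 94 symbols, since Kcnb2 and Kcnh8 are each split into a pair of entries. Their sites were measured by ChIP-seq, in which chromatin is precipitated with an antibody and its DNA sequenced, in untreated NS-5 cells. NS-5 is a mouse neural stem cell (NSC) line derived from embryonic stem cells and grown with EGF and FGF2, each at 10 ng per mL. Chromatin was precipitated with antibodies against Med1, Carm1 or Jmjd1c or with rabbit IgG, with 1 sample for each, so that no value has a replicate error and no test across samples was possible. All 4 samples are of this single line, without a treatment or a second cell type.

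Med1 is a subunit of Mediator, the complex that connects transcription factors at enhancers with RNA polymerase II at promoters. Carm1, an arginine methyltransferase, and Jmjd1c, a member of the JmjC family of histone demethylases, act as coactivators. Potassium channels let potassium ions leave or enter the cell and thereby set the resting potential and end each action potential. Their pore subunits are voltage-gated, inwardly rectifying, of the tandem pore domain (leak) type or opened by calcium or sodium ions, and auxiliary subunits alter their opening and their place in the membrane. In the nervous system the voltage-gated types are best known from neurons, and the inward rectifier encoded by Kcnj10 from astrocytes, where it takes up potassium.

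Fewer of these genes than of all protein-coding genes had a Mediator site at their start, 12.5% against 39.8%. A site of any of the 3 factors, or an enhancer region, was found in 37 of the 96 genes (38.5%, 95% Wilson interval 29.4 to 48.5%), against 52.7% of all protein-coding genes, and 59 had neither. Kcnd3, which encodes a pore subunit of the fast-inactivating voltage-gated channels, had the most: 10 Med1, 4 Carm1 and 6 Jmjd1c sites inside the gene and both super enhancers (SEs) found in any Kcn gene. Other genes with several sites or regions included Kcnq5 and Kcnq3, which encode subunits of the slowly activating M-type channels, the calcium-activated channel genes Kcnn3 and Kcnn2, the auxiliary subunit gene Kcnip3 and Kcnj10. Kcnq1, Kcnma1, Kcnc1 and Kcnj12 were also among them. Intervals cover the counting of genes or sites only.

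The sequences at which all 3 factors met are shown first, since they are the positions in these genes where binding of Med1 coincides with both coactivators. A Med1 site was counted as a site of all 3 factors when it shared at least 1 bp with a Carm1 site and with a Jmjd1c site. There were 12 such sites in 7 Kcn genes, of 2572 in the genome, and 5 of the 12 stood among the first 5000 of the 19956 entries of the Med1 list, whose order the authors do not state. For 4 of these 5, 300 bp of mm9 centred on the middle of the Carm1 site nearest to a Jmjd1c site are given from the plus strand, 5′ to 3′, with capitals for the motifs CAGNTG (E-box), TTGGC (NFI factors), ACAAAG or ACAATG (SOX factors) and TGANTCA (AP-1), each searched on both strands.
Kcnd3, chr3:105388754-105389053: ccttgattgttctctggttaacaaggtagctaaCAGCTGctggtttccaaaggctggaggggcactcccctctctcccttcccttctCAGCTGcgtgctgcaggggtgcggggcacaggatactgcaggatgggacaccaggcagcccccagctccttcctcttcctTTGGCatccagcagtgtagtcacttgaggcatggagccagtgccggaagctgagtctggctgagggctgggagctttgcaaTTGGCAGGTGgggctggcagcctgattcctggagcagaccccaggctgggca
Kcnd3, chr3:105333754-105334053: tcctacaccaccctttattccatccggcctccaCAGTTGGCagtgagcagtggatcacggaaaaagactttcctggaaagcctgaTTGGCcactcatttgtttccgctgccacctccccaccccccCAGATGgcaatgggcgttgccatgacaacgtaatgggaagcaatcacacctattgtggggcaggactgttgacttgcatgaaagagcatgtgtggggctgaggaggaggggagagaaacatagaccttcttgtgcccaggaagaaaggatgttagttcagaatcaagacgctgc
Kcnj10, chr1:174280103-174280402: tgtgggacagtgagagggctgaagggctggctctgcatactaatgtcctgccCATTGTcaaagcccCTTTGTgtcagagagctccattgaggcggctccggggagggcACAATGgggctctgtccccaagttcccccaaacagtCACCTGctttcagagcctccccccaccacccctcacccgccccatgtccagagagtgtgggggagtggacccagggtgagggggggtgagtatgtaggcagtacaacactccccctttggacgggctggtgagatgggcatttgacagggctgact
Kcnq3, chr15:66071256-66071555: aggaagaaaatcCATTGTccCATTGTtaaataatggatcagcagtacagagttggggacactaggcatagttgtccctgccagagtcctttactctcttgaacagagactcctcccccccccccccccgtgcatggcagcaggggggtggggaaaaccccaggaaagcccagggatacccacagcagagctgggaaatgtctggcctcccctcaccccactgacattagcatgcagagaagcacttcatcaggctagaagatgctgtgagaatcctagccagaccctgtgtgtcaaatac

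The first window of Kcnd3 holds 3 E-boxes and 2 NFI motifs, and an E-box and an NFI motif overlap in its run TTGGCAGGTG. In the second window of Kcnd3 they overlap in the run CAGTTGGC. The Kcnj10 window holds 3 SOX motifs and 1 E-box and the Kcnq3 window 2 SOX motifs. Over the 12 windows in Kcn genes, 8 held an E-box (66.7%), as did 66.7% of the windows at all 2572 sites. An NFI motif was present in 6 of 12 against 66.5% of all windows, a SOX motif in 6 of 12 against 47.4%, and the AP-1 motif in 2 of 12 against 10.7%. A match is only an occurrence of these letters, and with 12 windows the shares are a description.

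At the 5' end of the gene, a Med1 site with its midpoint within 1.5 kb was found for 12 of the 96 Kcn genes (12.5%, Wilson interval 7.30 to 20.6%), against 39.8% of all protein-coding genes. For Carm1 it was 2 genes (2.08%, interval 0.573 to 7.28%) against 9.66%, and for Jmjd1c 5 genes (5.21%, interval 2.24 to 11.6%) against 8.45%. The whole interval of the Kcn genes lay under the share of all genes for Med1 and Carm1, but not for Jmjd1c. Voltage-gated sodium and calcium channel genes had Med1 there in 11 of 41 (26.8%, interval 15.7 to 41.9%) and glutamate and GABA receptor genes in 8 of 48 (16.7%, interval 8.70 to 29.6%), and both intervals overlap that of the Kcn genes. RNA levels were not analysed here.

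**Figure D1:**
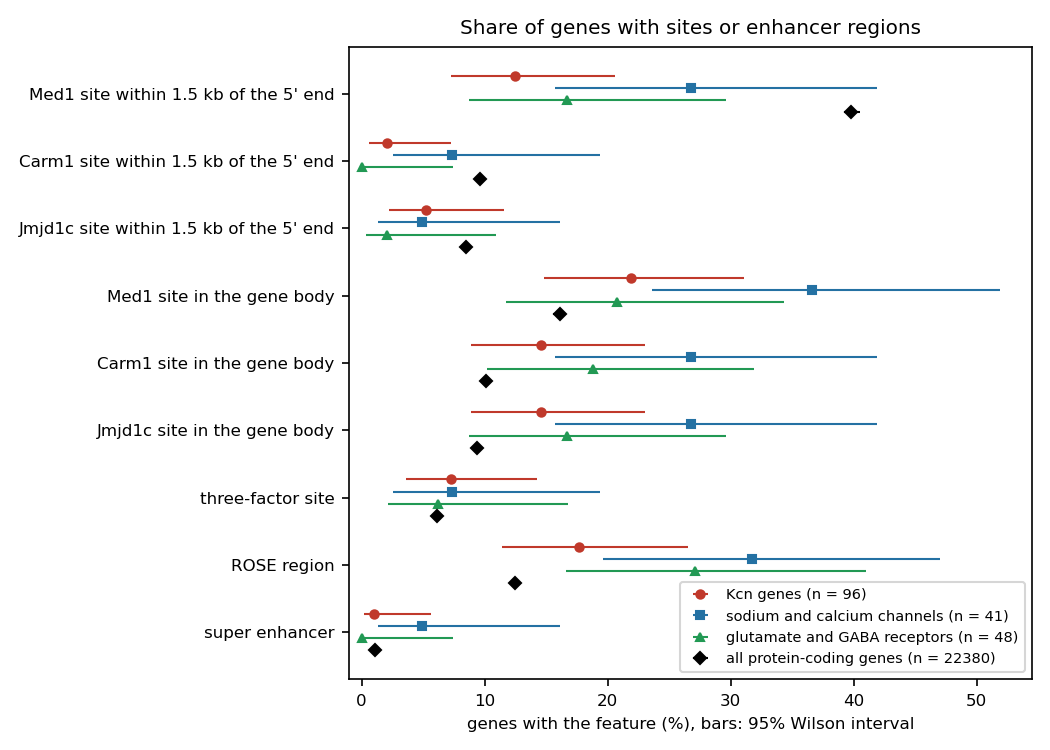
Share of genes (x axis, percent) with a site of each factor within 1.5 kb of the 5' end or in the gene body, with a site of all 3 factors, an enhancer region of the ROSE table or a super enhancer, for 96 Kcn genes, 41 sodium and calcium channel genes, 48 glutamate and GABA receptor genes and all 22380 protein-coding genes. Bars are 95% Wilson intervals, and the Kcn genes lie far to the left of all genes for Med1 at the 5' end (12.5% and 39.8%) but not in gene bodies (21.9% and 16.1%).

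Of the 12 genes with Med1 at the 5' end, 7 encode voltage-gated pore subunits (among them Kcna7, Kcnc1, Kcnd3, Kcnh6 and Kcnq5), 3 auxiliary subunits (Kcnip3, Kcnab3 and Kcnmb4), 1 a tandem pore domain channel (Kcnk5) and 1 the sodium-activated channel gene Kcnt1. None of the 15 inward rectifier genes and none of the 10 genes of modifying voltage-gated subunits had Med1 there. The share over all 96 Kcn genes was 12.5%, these families are small, and a difference between families was not tested. The widest of these sites were at Kcnd3, with 3701 bp centred 195 bp upstream of the 5' end, at Kcnc1, which encodes a pore subunit of fast-spiking neurons, with 3558 bp, and at Kcnt1, with 3242 bp. In 10 of the 12 genes no midpoint of Carm1 or Jmjd1c lay within 1.5 kb, and the exceptions were Kcnip3 and Kcnk5, where a Jmjd1c site of 331 bp and of 309 bp overlapped the Med1 site. Over all protein-coding genes, 39.8% had Med1, 9.66% Carm1 and 8.45% Jmjd1c at the 5' end. These shares come from lists of 19956, 8759 and 8078 sites whose thresholds are not settled, so they do not compare the factors. The share of all genes with Med1 alone there was not counted, so the 10 of 12 cannot be called particular to Kcn genes.

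In 5 genes Carm1 or Jmjd1c was at the 5' end without a Med1 midpoint, and the share of all genes with this was not counted. Jmjd1c had 2 sites at Kcnj2, an inward rectifier gene, centred 945 bp upstream and 6 bp downstream of its 5' end, and 1 site each at Kcnh5 and Kcns2. Carm1 had a site of 264 bp upstream of Kcnq3 and of 236 bp at Kcnab2, an auxiliary subunit gene whose site also lies 288 bp from a start of Nphp4, so that it cannot be given to either gene. No other site at the 5' end of a Kcn gene lay within 1.5 kb of the start of another protein-coding gene. Of the genes named here, Kcnc1 had the Med1 site counted nearest to the limit, centred 1004 bp from the 5' end. The nearest sites inside a gene but past it were the Jmjd1c and the Carm1 site of Kcnt1, at 1.71 and 1.79 kb, and a Med1 site of Kcnj10 at 1.98 kb.

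**Figure D2:**
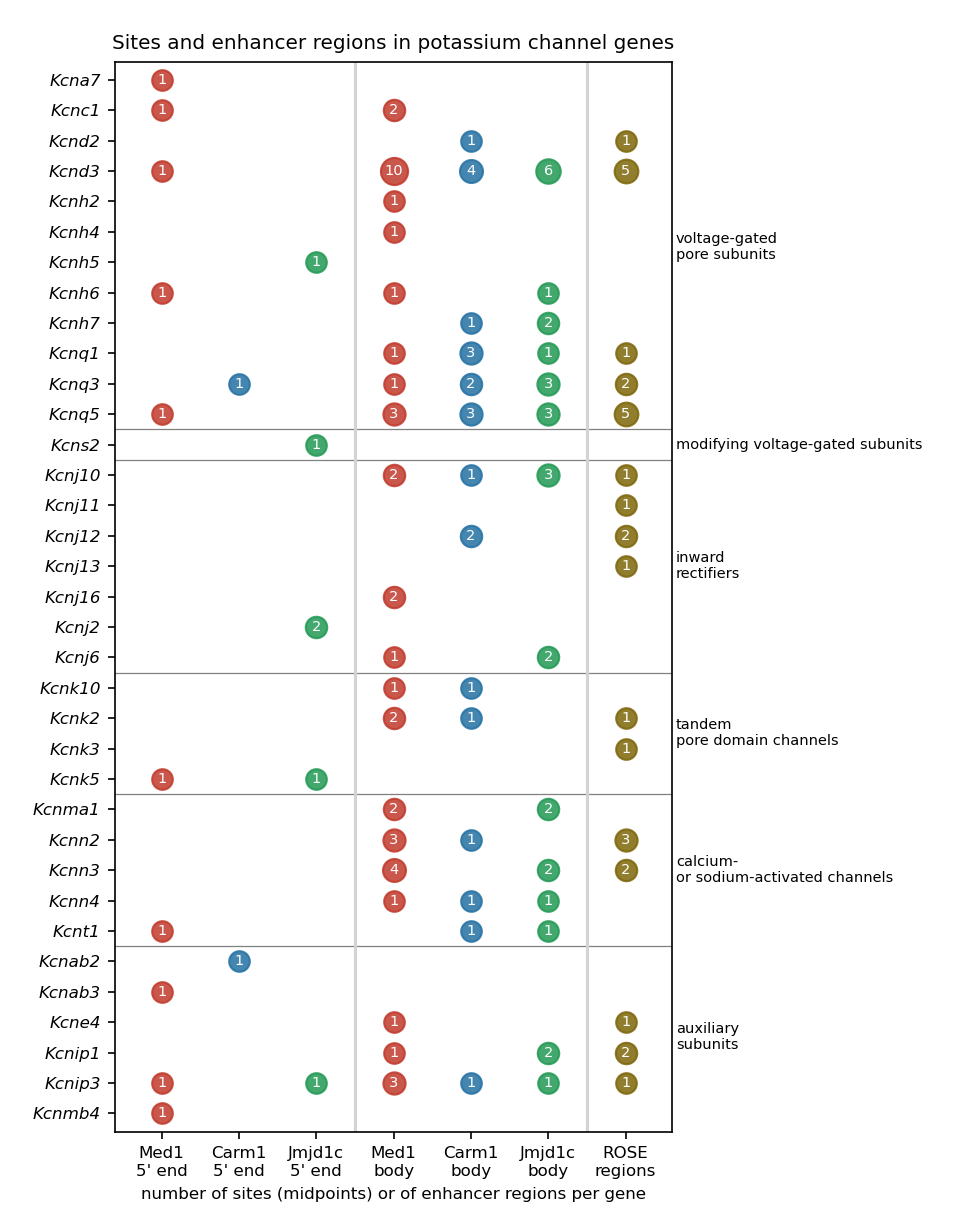
Number of sites with their midpoint within 1.5 kb of the 5' end or in the gene body, and number of enhancer regions of the ROSE table that overlap the gene, for 35 of the 37 Kcn genes that have any, ordered by family. Circles carry the number, and an empty place means none: Kcnd3 has the fullest line, with 10 Med1, 4 Carm1 and 6 Jmjd1c sites in its body and 5 enhancer regions.

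Inside the genes, more than 1.5 kb from the 5' end, Med1 had 44 sites in 21 Kcn genes (21.9%, interval 14.8 to 31.1%) against 16.1% of all protein-coding genes. Carm1 had 23 sites in 14 genes (14.6%, interval 8.89 to 23.0%) against 10.1%, and Jmjd1c 30 sites in 14 genes (14.6%, same interval) against 9.41%. The median Kcn gene is 27548 bp long and the median of all protein-coding genes 15420 bp, so the sites are also given by length. Per Mb of gene body there were 4.57 Med1 sites in Kcn genes and 6.72 in all genes, 2.39 and 3.36 Carm1 sites, and 3.11 and 3.37 Jmjd1c sites. Sodium and calcium channel genes had 4.32 Med1 sites per Mb and glutamate and GABA receptor genes 1.48. Kcnd3 alone held 22.7% of the Med1 sites, 17.4% of the Carm1 sites and 20.0% of the Jmjd1c sites in Kcn gene bodies.

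Among genes of similar length, the share of Kcn genes with a site in the body was near that of all genes, though the intervals are wide. The number of sites per Mb, given above, was lower. Med1 at the 5' ends stayed below the background. Of 23 Kcn genes of 100 kb and over, 11 had a Med1 site in the body (47.8%, interval 29.2 to 67.0%, against 51.9%), 9 a Carm1 site (39.1% against 44.4%) and 9 a Jmjd1c site (39.1% against 42.2%). An enhancer region of the ROSE table overlapped 9 of them (39.1% against 50.1%). At the 5' end of these long genes Med1 was found in 2 (8.70%, interval 2.42 to 26.8%), against 47% of all genes of that length. Carm1 and Jmjd1c were each found there in 1 (4.35%, interval 0.772 to 21%), and this interval includes the 8.87% and 8.54% of all genes of that length. For genes of 10 to 100 kb, Med1 was in the body of 9 of 46 (19.6% against 19%) and at the 5' end of 8 (17.4%, interval 9.09 to 30.7%, against 49.2%). For 27 genes under 10 kb the numbers were 1 in the body (3.70% against 2.83%) and 2 at the 5' end (7.41%, interval 2.06 to 23.4%, against 26.2%). Enhancer regions overlapped 5 of the 46 genes of 10 to 100 kb (10.9% against 13.1%) and 3 of the 27 under 10 kb (11.1%, interval 3.85 to 28.1%, against 1.43%), so that the short Kcn genes lay above the background here. These 3 are Kcne4, Kcnj11 and Kcnj13, and each of their regions reaches beyond the gene. The regions at Kcnj11 and Kcnj13 also overlap Abcc8 and Gigyf2 and cannot be given to the channel gene, so the higher share rests on them in part.

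**Figure D3:**
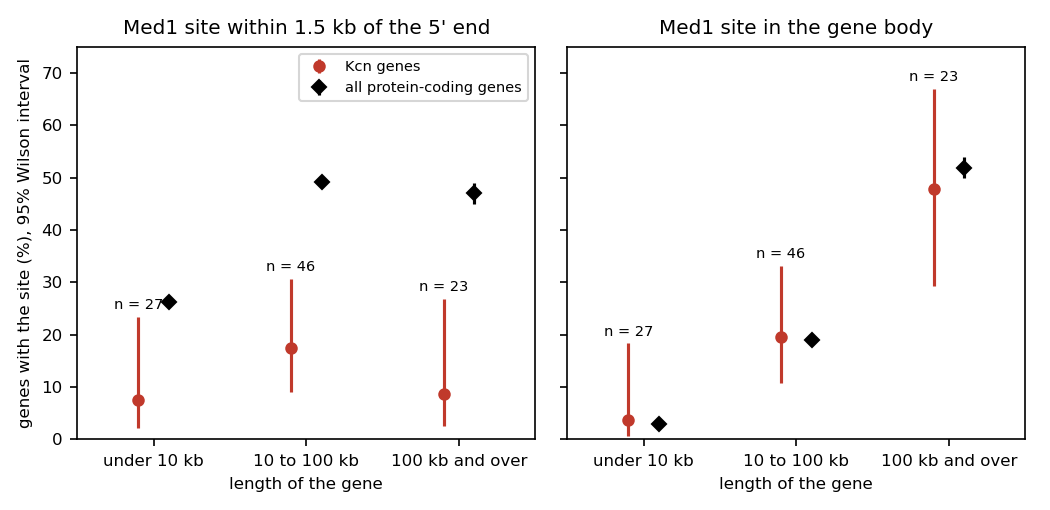
Share of genes (y axis, percent) with a Med1 site within 1.5 kb of the 5' end (left) and in the gene body (right) by length of the gene (x axis), for Kcn genes and all protein-coding genes, with 95% Wilson intervals and the number of Kcn genes. The share in bodies rises with length in both, from 3.70% to 47.8% of Kcn genes, while at the 5' end the Kcn genes are below all genes in each class.

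By their midpoints, 40 of 44 Med1 sites in the bodies were intronic (90.9%, interval 78.8 to 96.4%, against 86.7% in the bodies of all protein-coding genes). All 23 Carm1 sites (interval from 85.7%, against 91.7%) and all 30 Jmjd1c sites (interval from 88.6%, against 92.1%) were intronic too, and these intervals include the shares of all genes. None lay within 1.5 kb of the start of another protein-coding gene, but 6 of the Med1 sites lay that close to an internal transcript start of the same channel gene. These were in Kcnc1, in Kcnh2, which encodes a voltage-gated channel best known from the heart, in Kcnip3, Kcnk10, Kcnj16 and Kcnn2, at 121, 129, 42, 70, 973 and 1030 bp. Of the 44 Med1 sites, 13 overlapped a Carm1 site (29.5%, interval 18.2 to 44.2%) and 17 a Jmjd1c site (38.6%, interval 25.7 to 53.4%), against 25.4% and 29.7% of Med1 sites in the bodies of all protein-coding genes. From the other side, 15 of 23 Carm1 sites (65.2%, against 52.4%) and 20 of 30 Jmjd1c sites (66.7%, against 61.6%) overlapped a Med1 site. These intervals include the shares of all genes.

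Sites of all 3 factors were present in 7 of the 96 genes (7.29%, interval 3.58 to 14.3%) against 6.14% of all protein-coding genes. By length, 3 of 23 genes of 100 kb and over had one (13%, interval 4.54 to 32.1%, against 20.6%). Of the genes of 10 to 100 kb 4 of 46 did (8.70%, interval 3.43 to 20.3%, against 6.21%), and under 10 kb 0 of 27 (against 2.13%). Of the 12 sites, 8 lay in an enhancer region, and the share of all 2572 such sites that do was not counted. Kcnd3 had 4, Kcnq5 had 3, and Kcnip3, Kcnj10, Kcnn4, Kcnq3 and Kcnt1 had 1 each. With the midpoints of all 3 required to lie within 200 bp, 3 Kcn genes had such a site and the order turned (3.12% against 3.25%). The midpoints of Carm1 and Med1 were between 18 and 2275 bp apart, with 687 bp at the Kcnd3 site second in the list of sequences and 996 bp at Kcnt1, while those of Carm1 and Jmjd1c were within 200 bp in 11 of the 12. The exception was a Med1 site of 4477 bp in Kcnd3, where they were 3792 bp apart near opposite ends of the site. The site in Kcnn4, which encodes a calcium-activated channel of intermediate conductance, lay 3.54 kb into the gene, in intron 1 and outside any enhancer region. That of Kcnj10 lay 9.08 kb from the 5' end, in intron 1 and also outside any enhancer region, with the Carm1 site of 468 bp and the Jmjd1c site of 417 bp centred 48 bp apart. At Kcnip3 the Med1 site at 39.6 kb covered an internal transcript start, 42 bp from its middle. Its protein binds both channel subunits such as that of Kcnd3 and, as a calcium sensor in the nucleus, DNA. At Kcnt1 the Med1 site began upstream of the gene and reached Carm1 and Jmjd1c sites in the first intron.

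Enhancer regions come from the authors' ROSE table, which joins neighbouring enhancers marked by Ep300 and H3K27ac and gives for each of 8089 regions the Med1 and the IgG signal, summed over its length. Of the 96 Kcn genes 17 overlapped a region (17.7%, interval 11.4 to 26.5%) against 12.5% of all protein-coding genes, with 31 regions in all, 28 of them wholly inside the gene. The median Med1 minus IgG signal of these 31 was 368 (quartiles 240 and 914), against 476 over all regions, and per kb of region the median was 231 against 229. Of the 31 regions 13 lay above the median of all regions. A Med1 site was present in 16, a Carm1 site in 10, a Jmjd1c site in 10, sites of all 3 in 7 and no site in 12. Over all regions 53.9% had a Med1 site, 33.4% a Carm1 site, 38.8% a Jmjd1c site and 19.4% all 3. The share of all regions with no site was not counted, so the 12 cannot be called many or few.

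SEs overlapped 1 of the 96 genes (1.04%, interval 0.184 to 5.67%) against 1.09% of all protein-coding genes, and that gene was Kcnd3. Kcnd3 lies on chromosome 3 from 105255248 to 105476920 and is 222 kb long. Its SE of rank 72, from 105323427 to 105351914, had 10150 for Med1 against 2077 for IgG, with 4 Med1, 1 Carm1 and 2 Jmjd1c sites. The SE of rank 106, from 105365912 to 105396277, had 10616 for Med1 against 3601 for IgG, with 2 Med1, 2 Carm1 and 3 Jmjd1c sites. The second SE thus had the higher Med1 and the higher IgG signal. Both lie in intron 2, centred 82.4 and 126 kb from the 5' end, and are 28.5 and 30.4 kb long. Per kb their Med1 minus IgG signal was 283 and 231, which 39.0% and 49.6% of all regions exceeded, while the rank goes by the sum over the whole length. Over all SEs the median per kb was higher, 367, and the median length shorter, 15196 bp. The other 3 regions of the gene, also in intron 2, had ranks of 1797, 4655 and 6631, and only the first of them held a site. Together the 5 regions had 54.0% of the Med1 minus IgG signal of all regions in Kcn genes.

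**Figure D4:**
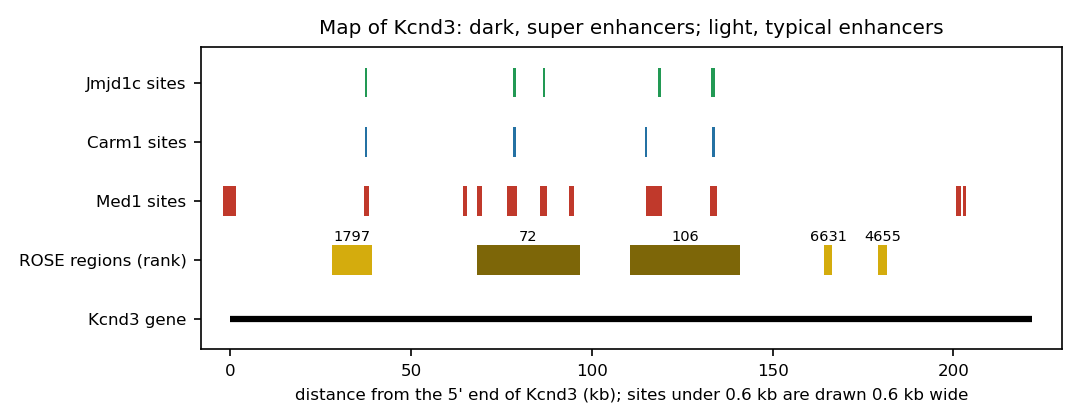
Map of Kcnd3 with the distance from its 5' end in kb (x axis), showing the gene, the 5 enhancer regions with their ranks (dark for the SEs of rank 72 and 106, light for typical enhancers) and the sites of Med1, Carm1 and Jmjd1c. All Carm1 and Jmjd1c sites overlap the 3 regions of rank 1797, 72 and 106, both Med1 sites near 201 kb and beyond lie outside any region, and 2 of the 6 Jmjd1c sites nearly coincide.

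Kcnd2, which encodes the close relative of the Kcnd3 subunit, had far fewer sites. It is 514 kb long and had no Med1 site, no Jmjd1c site and 1 Carm1 site of 236 bp, and its single region, at rank 7542, had 81.9 for Med1 and 63.4 for IgG. Of the auxiliary subunits that bind these channels, Kcnip3 had a region of rank 1385 in intron 2, with 2212 for Med1, 708 for IgG and 1 Med1 site. Kcnip1 had 2 regions of ranks 6918 and 6926 without any site, and outside them 1 Med1 site that overlapped 1 of its 2 Jmjd1c sites. Kcnip1 lies on chromosome 11, where typical enhancers had medians per kb of 203 for IgG and 532 for Med1. Its own regions had 80.6 and 33.4 per kb for IgG and 463 and 87.5 for Med1.

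Among the M-type channel genes, Kcnq5 had 5 regions over its 564 kb, of ranks 2424, 2464, 4781, 5058 and 7133. Each of the first 3 held 1 Med1, 1 Carm1 and 1 Jmjd1c site, and the last 2 held none. Their Med1 signals were 1363, 1445, 441, 303 and 121, beside IgG signals of 441, 539, 96.1, 0 and 63.7. Kcnq3 had a region of 1.08 kb at rank 2475 in intron 1 with 1 Med1, 2 Carm1 and 2 Jmjd1c sites. Its Med1 signal per kb was 1133 and its IgG signal per kb 298, and the difference, 835, was exceeded by 3.62% of all regions. The other region of Kcnq3, at rank 6047, had 242 for Med1, 63.5 for IgG, 1 Jmjd1c site and no Med1 site. Both lie on chromosome 15, where typical enhancers had medians per kb of 171 for IgG and 439 for Med1. Outside chromosomes 11 and 15 these medians ran from 67.3 to 134 for IgG and from 282 to 408 for Med1. The comparison with all regions makes no allowance for this. Kcnq1, a channel gene of heart and epithelia, had a region of 0.546 kb at rank 4922 with 346 for Med1, 22.8 for IgG, and 1 Med1 and 1 Carm1 site.

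**Figure D5:**
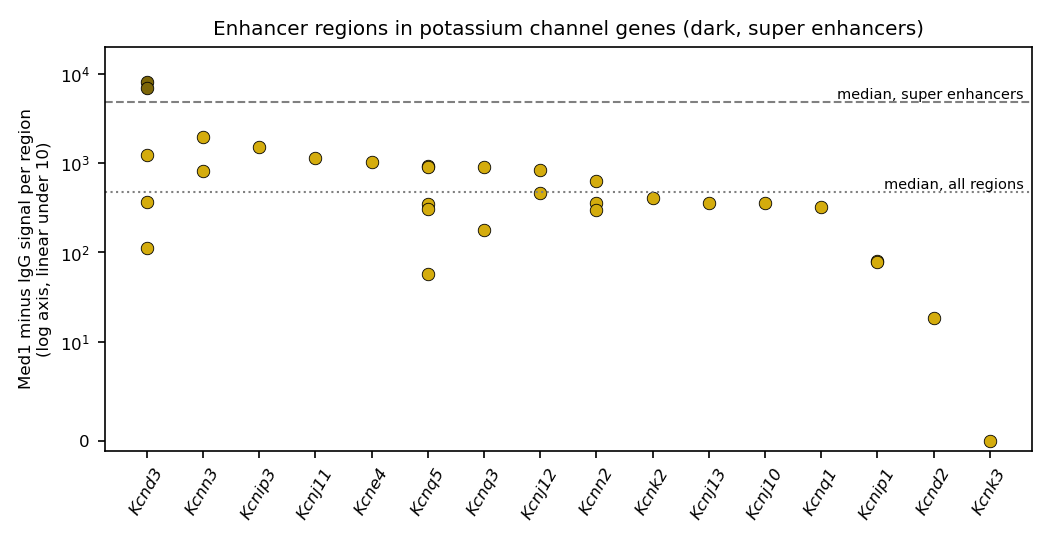
Med1 minus IgG signal (y axis, log axis that is linear under 10) of 30 of the 31 enhancer regions in Kcn genes, from 16 of the 17 genes that have any, ordered by the highest region of each gene. The signal is summed over each region. The 2 regions of Kcnd3 that are SEs, drawn dark, stand above the median of all SEs (4855, dashed), but not per kb (283 and 231 against 367). Of the 30 regions 13 lie above the median of all regions (476, dotted).

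Of the 8 genes of calcium- or sodium-activated channels, 4 had a Med1 site in the body. The median length of these 8 genes is 117954 bp, but they run from 14.9 to 505 kb. Such a site was in 51.9% of all protein-coding genes of 100 kb and over and in 19% of those of 10 to 100 kb. Kcnn3, a small-conductance channel gene, had the region of the highest rank outside Kcnd3, at 979, from 89450015 to 89452106 on chromosome 3 in intron 4. It had 2549 for Med1 against 594 for IgG, and its Med1 minus IgG signal per kb, 934, was exceeded by 2.36% of all regions. Neither Carm1 nor Jmjd1c had a site in it. The second region of Kcnn3, at rank 2682, held 2 Med1 sites and 1 Jmjd1c site. Kcnn2, of the same channel type, had regions of ranks 3299, 4723 and 5076 with Med1 signals of 934, 443 and 396 and IgG signals of 298, 85.6 and 95.2. Its widest Med1 site, of 2985 bp, lay outside all of them, 1030 bp from an internal transcript start. Kcnma1, which encodes the large-conductance channel, had no region, and each of its 2 Med1 sites, 402 and 425 kb from the 5' end, overlapped a Jmjd1c site.

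Among the inward rectifiers, Kcnj10 had 2 Med1, 1 Carm1 and 3 Jmjd1c sites, all in intron 1, and a region at rank 4704 with 841 for Med1, 480 for IgG and 1 Jmjd1c site. Kcnj16, whose product forms channels together with that of Kcnj10, had 2 Med1 sites and no region. Kcnj12 had regions of ranks 2627 and 4094, with Med1 signals of 1453 and 1287 and IgG signals of 608 and 820. The first of these held 2 Carm1 sites and no Med1 site, and both lie on chromosome 11, where IgG and Med1 signals per kb were both raised. The regions at Kcnj11, which encodes the pore of ATP-sensitive channels (rank 1950, Med1 signal 2163, IgG signal 1021), and at Kcnj13 (rank 4697, Med1 signal 992, IgG signal 630) also overlap Abcc8 and Gigyf2, and cannot be given to the channel gene. Kcnj6 had 1 Med1 and 2 Jmjd1c sites apart from each other and no region.

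Of the 14 tandem pore domain genes, 4 had a site or a region, beside 38.5% of all Kcn genes and 52.7% of all protein-coding genes. Kcnk2 had 2 Med1 sites, 1 Carm1 site and a region at rank 4422 with 494 for Med1 against 87.8 for IgG. Kcnk10 had 1 Med1 and 1 Carm1 site in its body, and Kcnk5 was bound at its 5' end only. The region in Kcnk3, of 0.190 kb at rank 7754, had a signal of 0 for both Med1 and IgG. Kcne4, an auxiliary subunit gene of 3098 bp, had a region at rank 2169 that reaches beyond the gene, with 1693 for Med1, 653 for IgG and 1 Med1 site. The 59 genes without a site or region, of 96, include 18 of the 32 entries of voltage-gated pore subunits, among them Kcna1, Kcna2 and Kcna4. They also include 9 of the 10 genes of modifying subunits. The median length of these 10 genes is 10239 bp, against 27548 bp for all Kcn genes, and a difference between families was not tested.

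Of the cell type markers, 3 of 8 for NSCs (Sox2, Fabp7 and Vim) had Med1 at the 5' end, as did 3 of 4 astrocyte markers and 1 of the 4 neuronal markers found in the annotation (Tubb3). None of 3 microglial and none of 3 endothelial markers did. With 39.8% of all protein-coding genes bound there, the NSC markers were at the background and these counts do not tell the cell type. The Med1 sites had a median width of 1502 bp, and the 8759 Carm1 and 8078 Jmjd1c sites of 269 and 312 bp. How many reads each sample had is not stated, so that the depth of each sample is unknown and an unbound gene may hold sites below the threshold of its list.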

How the data were processed

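ChIP-seq of Med1, Carm1, Jmjd1c and IgG was available for 1 sample each. Reads were mapped by the authors with Bowtie 0.12.7 (mm9). They removed duplicates (Picard 1.81 is named in the submitters' notes) and called sites with MACS 1.4.2 against IgG, merging replicates where there were several. The thresholds of the deposited lists are not settled here, so counts of sites are not compared between factors. The lists hold starts and ends only, and starts were moved by 1 to count from 1. The signal of the enhancer table is the authors' ROSE signal, that is, read density scaled to mapped reads and summed over the region. By the authors' methods the enhancers that are joined lie more than 1 kb from any TSS, but the joined region need not, so that a region can span a 5' end. Chromosome names and ends were checked against the NCBIM37 genome, the same build.

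A gene's 5' end is the first base of its GENCODE vM1 gene entry. Sites were placed by midpoints, and regions by at least 1 bp of overlap with the gene. The members, families, comparison lists and motifs were chosen with earlier results of these data known. The families and lists were taken by symbol. Genes named are all that overlap an enhancer region or hold a site of all 3 factors, and up to 4 examples of each other kind. A few genes and 1 sequence that fall under these rules are not reported here, but count in the totals. Others (the remaining genes bound at the 5' end, at internal starts or beside Kcnj10) were chosen after their values were seen. Shares carry 95% Wilson intervals. Functions were tested on simulated data, where 7 of 7 checks passed. Alternatives covered distance, start sites, overlap, parts of the lists and the ranking signal. Python 3.11.15, numpy 2.4.6, pandas 2.3.3 and matplotlib 3.10.9 were used.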

Additional observations from a re-analysis of the deposited data

How the results depend on the processing

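No paired analysis was possible because each antibody has 1 sample. Of 38 alternatives, 20 kept the count of Kcn genes within 1.5 times. The share of Kcn genes with Med1 at the 5' end was below that of all genes in 5 of 5 alternatives. Within 500 bp of the 5' end the counts were 7 for Med1 (7.29% against 33.1% of all genes) and 1 for Carm1 (1.04% against 7.88%). Within 5 kb they were 4 for Carm1 (4.17% against 12%) and 8 for Jmjd1c (8.33% against 10.6%). With the first 5000 Med1 sites, 5 genes had one at the 5' end (5.21% against 14.9%) and 6 in the body (6.25% against 4.16%). A site of all 3 factors was then in 4 genes (4.17% against 2.78%). With only the wider sites of the other lists (above the median width), 0 genes had Carm1 at the 5' end (against 4.76% of all genes). Jmjd1c was there in 3 (3.12% against 3.16%), and 9 had Carm1 in the body (9.38% against 5.81%). With 20 kb on either side of the gene, Med1 sites were found for 42 genes (43.8% against 48.1% of all genes), so that the order turned. Carm1 sites were found for 26 (27.1% against 25.4%) and Jmjd1c sites for 31 (32.3% against 23.5%). Enhancer regions were found for 29 (30.2% against 23.4%). SEs were found for 2 (2.08% against 2.23%), the added one lying in Bad, 15.7 kb upstream of Kcnk4. Any overlap of a site with the gene, which counts sites at the 5' end as well, also turned the order for Med1 (27.1% against 48.1%) and Carm1 (15.6% against 16.1%). Regions that overlap a Med1 site were in 10 genes (10.4% against 7.84% of all genes). As many regions as there are SEs, ranked by Med1 minus IgG signal per kb, lay in 2 genes (2.08% against 0.836%). These were Kcnq3 and Kcnn3, and not Kcnd3. Midpoints of all 3 factors within 200 bp were found in 3 genes (3.12% against 3.25%). Depth is unknown, so no limit of detection can be given.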
